A study of Mus musculus with 2 samples.

Results

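The cells described here are alveolar macrophages, the resident phagocytes of the air space, taken from scRNA-Seq libraries of mouse lung. A cell was kept when at least 3 unique molecular identifiers (UMIs) came from Marco, Ear1, Plet1 and Atp6v0d2 together. It also had to have at least 200 genes and 800 UMIs, at most 20% mitochondrial UMIs, at most 3 UMIs of the endothelial genes Cdh5 and Cldn5, and none of the B cell genes Cd79a and Ms4a1 or of Cd3d, Cd3e and Cd3g. This gate held 557 of 23930 cells, of which 408 were in the CebpaΔSftpc library (labelled Cebpa KO) and 149 in the Cebpa fl/fl library (labelled Cebpa FF). The cells were thus selected on the UMIs of these genes, whose levels describe the choice and are not results.

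The study deleted Cebpa, a transcription factor of lung epithelium and of myeloid cells, in alveolar type 2 (AT2) cells with a tamoxifen-dependent Cre driven by Sftpc. Both genotypes carried floxed Cebpa and received 5 daily tamoxifen injections of 75 mg/kg and, by the methods for analyses this late, a second round at weekly intervals. Lungs were taken 26 weeks after the first injection. Mice were of mixed background and 3 months old unless stated otherwise, with 3 mice of either genotype. Each genotype gave a single library, with 68430583 UMIs in 10906 cells (Cebpa fl/fl) and 64284784 UMIs in 13024 cells (CebpaΔSftpc), and no barcode tells the mice apart. The libraries shared 45 cell barcodes, none of them among the gated cells. The groups thus had no replicates, no test between them or between cell sets was possible, and all intervals below (exact Poisson for levels, exact conditional binomial for ratios) cover counting error only. The labels name a sorting method and the methods whole-lung suspensions, so shares refer to the cells loaded.

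Alveolar macrophages arise mostly before and around birth from fetal monocytes and renew themselves in the air space. GM-CSF, made by AT2 cells, and TGF-β drive PPARγ in them, and with it the uptake, storage and breakdown of surfactant lipid. Interstitial macrophages of the lung wall carry complement C1q and MHC class II instead, depend on M-CSF, and served here as the nearest comparison, next to classical monocytes.

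The label held for most of the gated CebpaΔSftpc cells and not for the Cebpa fl/fl cells. The 149 Cebpa fl/fl cells passed with Plet1 alone (920 UMIs), and had 0 UMIs of Marco, Ear1 and Atp6v0d2. Chil3, which encodes a chitinase-like protein typical of alveolar macrophages and was not in the gate, had 1 UMI in all of them, Ptprc (the leukocyte antigen CD45) had 2 and Tyrobp had 3. Of these cells, 136 (91.3%) carried at least 3 UMIs of Foxj1 and Ccdc153, genes of motile cilia. They are therefore called the Plet1 cells of the Cebpa fl/fl library below and not macrophages. Among all 10906 cells of that library that passed the quality limits, Marco had 5 UMIs, Ear1 had 1 and Atp6v0d2 had 13, against 2119, 3708 and 4103 in the 13024 CebpaΔSftpc cells. Chil3 had 181 UMIs in the Cebpa fl/fl and 69213 in the CebpaΔSftpc library. Ptprc was also unequal, with 1114 UMIs against 23729, so that leukocyte RNA as a whole was scarce in the Cebpa fl/fl library. Whether fewer macrophages were in those lungs or fewer were recovered cannot be told apart.

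**Figure D1:**
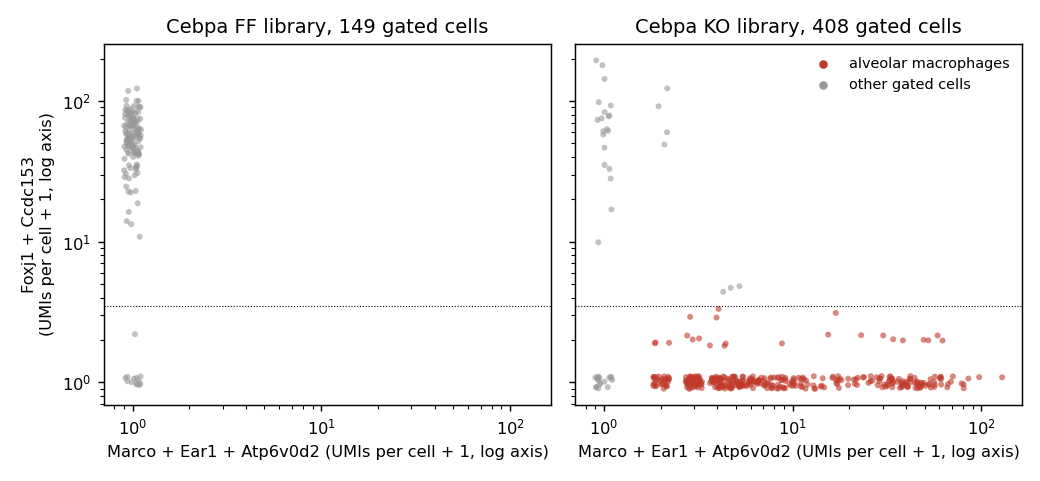
UMIs of Foxj1 and Ccdc153 (vertical, log axis) against UMIs of Marco, Ear1 and Atp6v0d2 (horizontal, log axis) for each gated cell, with 1 added and a small random shift. All 149 cells of the Cebpa FF library sit at 0 on the horizontal axis, 136 of them above the dotted line that marks 3 UMIs of the cilium genes, while the 364 red cells of the Cebpa KO library lie below it.

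In the CebpaΔSftpc library, 364 of the 408 cells had at least 1 UMI of Marco, Ear1 or Atp6v0d2 and fewer than 3 UMIs of Foxj1 and Ccdc153. These 364 cells, 2.79% of 13024 (95% Clopper-Pearson interval 2.52% to 3.09%), are called alveolar macrophages in what follows, a refinement chosen after seeing the data. The same criteria kept 0 of 10906 Cebpa fl/fl cells, which allows a share of up to 0.0275% (3 counts of the total). The other 44 gated CebpaΔSftpc cells included 37 with Plet1 as the only gate gene, and 27 with at least 3 cilium UMIs. A single cell among them held 63182 UMIs of Scgb1a1, the club cell secretoglobin, of 102977 UMIs in all. Chil3 stood at 158 CPM in these 44 cells, but unevenly: the 31 with at least 5000 UMIs had 39.4 CPM, and the 13 shallower ones, 4 of them with cilium genes, had 4733 CPM. Some of the shallower cells thus resembled alveolar macrophages without meeting the criteria. Chil3 stood at 11589 CPM in the alveolar macrophages, where CPM, the usual scaled count, is a gene's UMIs per 1e6 UMIs of a cell set.

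The alveolar macrophages fell into cells of high and of low depth. Their median was 2488 UMIs and 1360 genes, with a range of 800 to 51972 UMIs. The 129 cells with at least 5000 UMIs had a median of 20325 UMIs and 4837 genes and held 2570777 of the 3028222 UMIs. The other 235 cells had a median of 1651 UMIs and 1028 genes. Sums over all 364 cells thus mostly describe the deep cells.

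**Figure D2:**
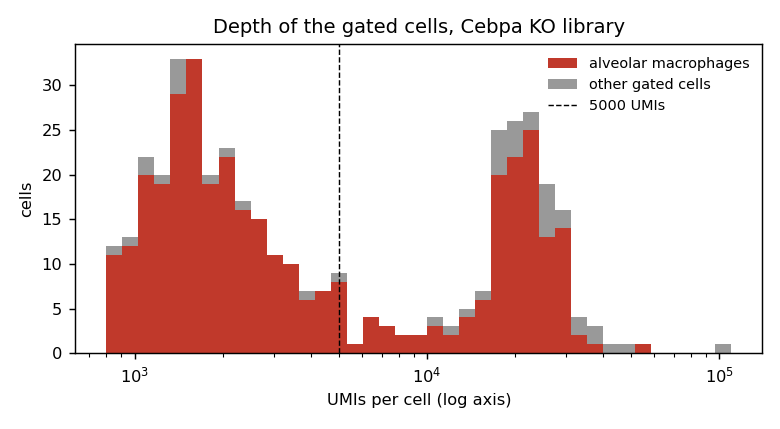
Number of gated Cebpa KO cells (vertical) by UMIs per cell (horizontal, log axis), with alveolar macrophages in red and the other gated cells in grey. The dashed line at 5000 UMIs separates 129 deep from 235 shallow alveolar macrophages.

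The edges of the gate were soft. Of the CebpaΔSftpc cells with exactly 3 gate UMIs, just inside, 71 were found, with a median of 6 Chil3 UMIs and Chil3 in 93.0%. Just outside, 131 cells had 2 gate UMIs and passed the other limits, with a median of 4 Chil3 UMIs and Chil3 in 86.3%. A further 238 cells had enough gate UMIs but failed an exclusion, 169 of them for endothelial, 52 for B cell and 54 for T cell genes. The cells outside the gate held 1092 of the 2119 Marco UMIs and 33987 of the 69213 Chil3 UMIs, and ratios over them understate the contrast. Of these outside Chil3 UMIs, 21287 lay in the 238 cells that failed an exclusion.

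The comparison sets came from the same library. C1q macrophages were 89 cells with at least 5 UMIs of C1qa, C1qb and C1qc, and classical monocytes were 186 cells with at least 3 UMIs of Lyz2, at least 3 of Ly6c2, Ccr2, F13a1 and Vcan, and at most 1 of the C1q genes. Both were allowed at most 1 UMI of the 4 gate genes. Differences in all these genes follow from the choice.

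The 4 gate genes stood above the comparison sets by choice, and Chil3 stood above them as well. In GRCm38, Marco lies at chr1:120474538-120505024, Ear1 at chr14:43818765-43875517, Plet1 at chr9:50494525-50505482, Atp6v0d2 at chr4:19876841-19922605 and Chil3 at chr3:106147554-106167564, each interval spanning the whole annotated gene. Marco, a scavenger receptor for particles and bacteria, had 336 CPM (95% interval 315 to 357) in alveolar macrophages and 0 UMIs in C1q macrophages. Ear1, an eosinophil-associated ribonuclease, had 696 CPM against 2 UMIs, and Atp6v0d2, a subunit of the vacuolar proton pump, had 765 CPM against 5 UMIs. Plet1, a membrane protein also found on some epithelial cells, had 1245 CPM against 5 UMIs. Chil3, which no gate used, stood at 11589 CPM (95% interval 11468 to 11711) in alveolar macrophages, 229 CPM in C1q macrophages and 1095 CPM in monocytes. Its log2 ratio over C1q macrophages was 5.66 (95% interval 5.36 to 5.98). After each cell was thinned to 800 UMIs, 97.5% of alveolar macrophages had a Chil3 UMI (98.9% unthinned), and so did 12.6% of the endothelial cells of the same library, which should lack the gene (36.6% unthinned, median 4213 UMIs against 2488). In Cebpa fl/fl endothelial cells the thinned share was 0.0137% (1 of 7320 cells). The 10 genes with the most UMIs in alveolar macrophages were Gm42418, Tmsb4x, Malat1, Lyz2, Chil3, Actb, Fth1, Ftl1, Cd9 and Ctsd, with ribosomal and mitochondrial genes left out.

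Genes known from alveolar macrophages were higher throughout. Of 30 identity genes outside the gate, 29 had at least 50 UMIs over both sets, and all 29 were 2-fold or more higher than in C1q macrophages, with a median log2 ratio of 3.84. Of all 7391 genes compared, 18.4% were 2-fold or more higher and 7.5% lower, with a median of 0.23. With all 408 gated cells, 28 of 29 were higher, against 20.2% of 8684 genes (6.99% were lower). With all 408 cells, 20.9% of genes were 2-fold or more higher than in monocytes and 9.08% lower, and 14.7% were higher and 22.2% lower than in the cells outside the gate. The list was chosen with results of these data known, and it names the cell type that the gate sought. The 10 genes highest over C1q macrophages were Plet1, Ear1, Atp6v0d2, Olr1, Chil3, Krt79, Slc7a2, Marco, Fabp1 and Ctsk. The 10 lowest were Cxcl13, C1qa, C1qb, C1qc, Aif1, Ccl17, Cx3cr1, Mmp12, Maf and Mgl2, of which the C1q genes chose the comparison cells.

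Among these genes, Cd9, a tetraspanin of the cell surface, had 4232 CPM against 725 in C1q macrophages and 429.9 in monocytes, a log2 ratio over C1q macrophages of 2.54 (95% interval 2.37 to 2.72). Ear2 had 1500.2 CPM against 169 and 91.1 CPM. Mrc1, the mannose receptor, had 1009 CPM against 458 and 9.71 CPM. Mrc1 thus set alveolar macrophages apart from monocytes far more than from C1q macrophages, with log2 ratios of 6.70 and 1.14.

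Olr1, a receptor for oxidized lipoprotein, had 396 CPM and was at least 50.8-fold higher than in C1q macrophages, where it had 0 UMIs (the bound takes 3 counts over the set as the floor). The keratin gene Krt79 had 1141 UMIs against 3, a log2 ratio of 5.59 (95% interval 4.04 to 7.87). Slc7a2, a transporter of cationic amino acids such as arginine, had 1076 UMIs against 1, a ratio of 7.09 (95% interval 4.61 to 12.40) from the UMIs as counted, without the floor. The intervals of both are wide because the C1q macrophages held few of these UMIs. Siglecf, a sialic acid-binding receptor used to sort these cells, had 172 CPM, with 3 UMIs in C1q macrophages and 1 in monocytes. Car4, a carbonic anhydrase that lung capillary cells also make, was the exception against the cells outside the gate, at 372 CPM against 613 CPM.

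The Ear genes share sequence, and the split between them is uncertain. Of the 31-base words in Ear1 transcripts, 40.6% also occur in Ear2 and 25% in Ear10. Ear10 had 1 UMI in all alveolar macrophages. The sharing extends to the promoters, which are shown here with Plet1 and Ctsk as examples of windows chosen for a match to the same motif. Each line gives the 200 bases before the RefSeq start in GRCm38.p6, read along the gene's strand, and capitals mark TTGCNNAA, the letters searched on both strands for C/EBP factors (reverse TTNNGCAA).
Ear1 (chr14:43819640-43819839, minus strand): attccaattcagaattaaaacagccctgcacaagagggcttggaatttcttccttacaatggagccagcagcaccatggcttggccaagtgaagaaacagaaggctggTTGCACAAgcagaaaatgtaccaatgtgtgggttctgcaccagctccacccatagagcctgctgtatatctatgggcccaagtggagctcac
Ear2 (chr14:44102454-44102653, plus strand): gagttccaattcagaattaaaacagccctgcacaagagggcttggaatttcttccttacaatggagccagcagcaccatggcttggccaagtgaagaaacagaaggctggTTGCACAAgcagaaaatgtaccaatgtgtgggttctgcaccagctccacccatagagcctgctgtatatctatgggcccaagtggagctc
Plet1 (chr9:50494325-50494524, plus strand): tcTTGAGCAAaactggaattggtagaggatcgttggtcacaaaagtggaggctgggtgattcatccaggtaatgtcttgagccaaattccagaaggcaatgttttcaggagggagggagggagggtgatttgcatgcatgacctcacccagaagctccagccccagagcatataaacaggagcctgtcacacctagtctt
Ctsk (chr3:95499010-95499209, plus strand): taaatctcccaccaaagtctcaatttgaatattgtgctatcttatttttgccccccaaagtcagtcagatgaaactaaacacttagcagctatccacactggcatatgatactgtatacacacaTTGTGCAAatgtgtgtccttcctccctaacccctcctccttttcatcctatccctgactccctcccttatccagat
The Ear1 and Ear2 windows share a run of 197 bases, and their matches start 92 and 90 bases before the RefSeq start. For Ear1 that is the start of the shorter transcript in GENCODE, and a longer transcript that starts further upstream sets the gene interval given above. The match lies 198 bases before the start of Plet1 and 76 before that of Ctsk. The window searched for Ctsk held a further match 24 bases after the start, outside the printed bases. Of 34 genes searched, 24 had a RefSeq promoter, in 28 windows of 300 bases. TTGCNNAA was found in 8 windows (28.6%), those of Cidec, Ctsk, Ear1, Ear10, Ear2, Fabp1, Plet1 and Pparg, and in 10.8% of all 32851 promoter windows. The 3 Ear windows are near copies and not separate cases. TGANTCA, the letters of AP-1 sites, was in 5 windows (17.9%) against 7.81% of all, CACGTG in 1 (3.57%) against 7.15%, and GAGGAAGT, a form bound by PU.1, in 0 against 3.2%. A match describes the letters of a window and not a bound site.

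Lipid genes were mostly higher. Of 26 genes of lipid uptake, storage, breakdown and efflux, 17 were 2-fold or more higher than in C1q macrophages, 0 were lower and 9 lay between, with a median log2 ratio of 1.68, where 18.4% of all genes were higher and 7.5% lower. Over monocytes 17 of 26 were higher and 2 lower, where 16.1% of 8313 genes were higher and 11.1% lower. Lpl, the lipase that frees fatty acids from triglyceride, had 3264 CPM (95% interval 3199.9 to 3329), against 426 CPM in C1q macrophages and 116 CPM in monocytes. Abcg1, which exports cholesterol, had 1422 CPM against 88.4 and 44.3 CPM. Plin2, a coat protein of lipid droplets, had 708 CPM against 122 and 98.4 CPM. All 3 stood 2-fold or more above both sets, and so did the fatty acid-binding protein genes Fabp1, Fabp4 and Fabp5. Fabp1, best known from liver and gut, had 986 UMIs in alveolar macrophages, 3 in C1q macrophages and 5 in monocytes. Cidec, which enlarges lipid droplets, had 231 CPM and 0 UMIs in both comparison sets. It was thus at least 29.7-fold higher than in C1q macrophages and at least 127-fold higher than in monocytes.

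The 9 lipid genes between the limits included other steps of the same traffic. Abca1, a second cholesterol exporter, had 149.6 CPM against 169 CPM in C1q macrophages, a log2 ratio of -0.18 (95% interval -0.55 to 0.22). Npc2, which carries cholesterol inside lysosomes, had 478 CPM against 694 CPM, and Cd36, a fatty acid receptor, had 304 CPM against 348 CPM. Scd1, the enzyme that desaturates stearate, had 108 CPM and was lower than in the monocyte set (770.5 CPM). That set carried 16276 CPM of AT2 markers, which bears on genes AT2 cells make. With monocytes limited to cells with Ptprc and few Sftpc and Dcn UMIs, a choice made after seeing the data, 2406 genes were 2-fold or more higher and 756 lower in the 408 gated cells, against 1970 and 854 without that limit. Single genes were not compared that way.

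Lysosomal genes were divided. Of 32, 12 were 2-fold or more higher than in C1q macrophages, 3 were lower and 17 lay between, where 18.4% of all genes were higher and 7.5% lower. With all 408 gated cells, 8 were higher and 4 lower, nearer to the 20.2% and 6.99% of all genes. Ctsd, an aspartic protease, had 3757 CPM (95% interval 3688 to 3827) against 699 CPM in C1q macrophages and 175 CPM in monocytes. Ctsk, a collagen-cleaving protease best known from osteoclasts, had 492 CPM against 5 UMIs, a log2 ratio of 5.24 (95% interval 4.02 to 6.87). Of the 6 proton pump genes in the list, which acidify the lysosome, 5 were higher (Atp6v0d1, Atp6ap1, Atp6v1a, Atp6v1b2 and Atp6v1c1), with log2 ratios from 1.04 to 1.94. The sixth, Atp6v0c, had a ratio of -0.03. The lower genes included the proteases Ctsb and Ctsh, with log2 ratios of -1.27 and -1.17. Over monocytes 16 of 32 were higher and 0 lower (16.1% and 11.1% of all genes).

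Receptors for uptake differed in both directions between the macrophage sets. Of 23 measured, 11 were 2-fold or more higher than in C1q macrophages and 5 lower (18.4% and 7.5% of all genes). Clec4n, which encodes the fungal lectin Dectin-2, had 379 CPM against 39.0 CPM. Mertk and Axl, receptors for dying cells, had 288 and 501 CPM against 72.8 and 182 CPM. The integrin gene Itgax (CD11c) stood at 396 against 138 CPM, while Itgam (CD11b) stood at 17.8 against 208 CPM. Itgam was among the 5 lower genes, with Trem2, Cd14, Fcgr1 and Fcgr2b, whose log2 ratios ran from -2.03 to -1.15. Tyrobp and Fcer1g, adaptors shared by many myeloid receptors, lay between the limits at -0.39 and -0.49.

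Transcription factors separated the sets in both directions. Cebpa, the gene targeted in AT2 cells, was present in the alveolar macrophages at 197 CPM (95% interval 182 to 214), against 174 CPM in C1q macrophages, 143 CPM in monocytes and 14.7 CPM in endothelial cells. Its log2 ratio over C1q macrophages was 0.18 (95% interval -0.19 to 0.57), within counting error of 0. After thinning, 10.7% of alveolar macrophages had a Cebpa UMI, 13.5% of C1q macrophages, 11.3% of monocytes and 1.38% of endothelial cells. All cells outside the gate held 34.3 CPM in the CebpaΔSftpc and 32.7 CPM in the Cebpa fl/fl library. The Cre driver is a gene of AT2 cells, so these values are no check of the deletion.

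Of 23 transcription factors measured, 9 were 2-fold or more higher than in C1q macrophages and 4 lower (18.4% and 7.5% of all genes), and in the deep cells alone 9 were higher and 6 lower. Pparg, the lipid-sensing receptor named above, had 102 CPM against 10 UMIs, a log2 ratio of 1.97 (95% interval 1.07 to 3.04). Bhlhe41, a repressor needed for self-renewal of these cells, had 149 CPM against 10.4 CPM, and Tfec, of the family that drives lysosomal genes, had 121 against 10.4 CPM. Runx1 and Cebpb, both general myeloid factors, stood at 503 and 1524 CPM against 127 and 588 CPM. The other 4 higher genes were Bhlhe40, Rxra, Egr2 and Nr1h3. Maf, which restrains macrophage self-renewal, was lowest, at 6.6 CPM against 520.0 CPM, and Klf2 and Atf3 were also among the lower genes. Spi1, which encodes PU.1, had 408, 403 and 416 CPM in alveolar macrophages, C1q macrophages and monocytes, and its log2 ratio over C1q macrophages was 0.02 (95% interval -0.22 to 0.27).

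Receptors for GM-CSF and M-CSF differed in opposite directions. Csf2rb, the signalling chain of the GM-CSF receptor, had 376 CPM against 70.2 CPM in C1q macrophages, a log2 ratio of 2.42 (95% interval 1.87 to 3.03). Csf1r, the M-CSF receptor, had 80.2 CPM against 785 CPM, a ratio of -3.29 (95% interval -3.54 to -3.04). Csf2ra, the binding chain for GM-CSF, had a ratio of 0.06, and the TGF-β receptor genes Tgfbr1 and Tgfbr2 had ratios of -0.10 and 0.31. In the list of 14, 3 were higher and 3 lower, with Il17ra and Il1rap beside Csf2rb and with Ifngr1 and Il10ra beside Csf1r. Of all genes 18.4% were higher and 7.5% lower, so the count of higher receptors was near the background.

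Genes of interstitial macrophages and antigen presentation were low next to C1q macrophages. Of 17 interstitial genes, 16 were 2-fold or more lower than in C1q macrophages, 0 were higher, and the median log2 ratio was -5.09, where 7.5% of all genes were lower and 18.4% higher. Apoe, which carries lipid out of cells, had 133 CPM against 8344 CPM. Cx3cr1, the fractalkine receptor, had 9.58 against 775 CPM, and Folr2, a folate receptor, had 0 UMIs against 59. C5ar1, the receptor of complement C5a, went against the list with 194 CPM against 107 CPM. All 7 measured MHC class II genes were 2-fold or more lower, with a median of -2.78. In the deep cells alone 5 were, and H2-DMa and H2-DMb1 lay just within the limit. Cd74, the invariant chain, had 2335 CPM against 16058 CPM, and H2-Eb1 had 434 against 7808 CPM. Against monocytes 0 of the 7 class II genes passed 2-fold in either direction. Against the cells outside the gate 2 of 9 were higher and 2 lower (10.7% and 27.6% of all genes), with a median of -0.09. Interferon-response genes were measured in small numbers, with 3 of 5 lower than in C1q macrophages and 9 of 12 lower than in monocytes (11.1% of all genes). Isg15, a ubiquitin-like protein induced by interferon, had 13.9 CPM against 33.8 and 153 CPM.

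**Figure D3:**
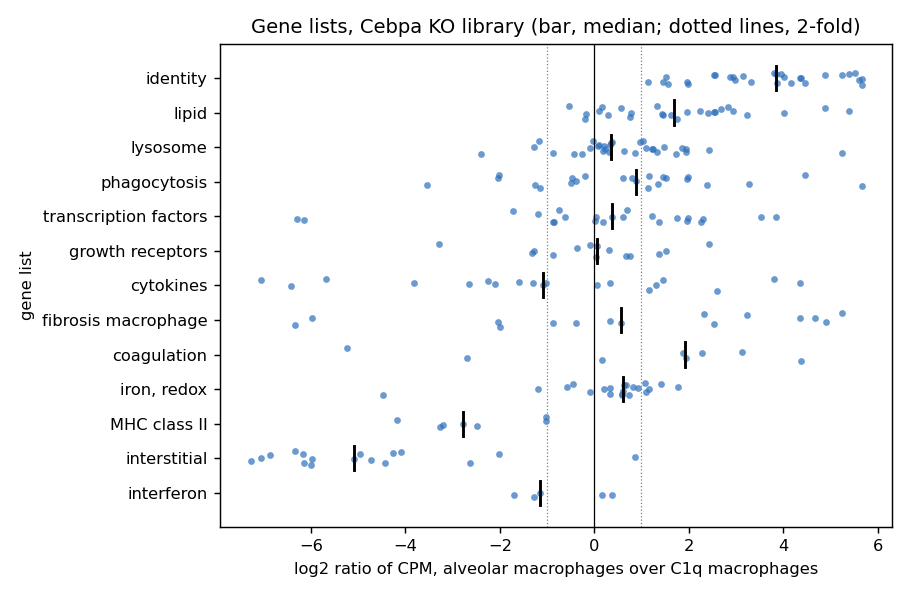
Log2 ratio of CPM in 364 alveolar macrophages over 89 C1q macrophages (horizontal), 1 point per gene with at least 50 UMIs over both sets, by gene list (vertical). Bars are list medians, from 3.84 for the identity genes to -5.09 for the interstitial genes, and dotted lines mark 2-fold.

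Cytokine genes were mostly below C1q macrophages, with exceptions that stood high. Of 19 measured, 11 were 2-fold or more lower and 6 higher, where 7.5% of all genes were lower and 18.4% higher. Ccl6, a chemokine of resting alveolar macrophages, had 2964 CPM against 486 and 730.4 CPM in C1q macrophages and monocytes. Il18, made as an inactive precursor, had 398 CPM against 28.6 and 23.1 CPM. Il1rn, the antagonist of interleukin-1, had 481 UMIs against 3 in C1q macrophages, a log2 ratio of 4.35 (95% interval 2.79 to 6.63), while Il1b, the agonist, had a ratio of -1.30 (95% interval -1.60 to -0.99). Neutrophil markers summed to 2816 CPM in C1q macrophages and 938 CPM in alveolar macrophages, and the part of neutrophil RNA in these cytokine values was not tested. The other higher genes were Ccl3, Osm and Il1a. The lowest were Ccl12, with 2 UMIs against 51, the T cell attractant Ccl17, with 16 against 173, and Cxcl16. Cxcl13, a B cell attractant outside this list and among the 10 lowest of all genes, had 1 UMI against 257.

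Genes reported for macrophages of fibrotic lung were split. Of 15 measured, 7 were 2-fold or more higher than in C1q macrophages and 4 lower (18.4% and 7.5% of all genes). Spp1, which encodes osteopontin, had 545 CPM against 18.2 CPM, a log2 ratio of 4.90 (95% interval 3.86 to 6.22), and Gpnmb, a glycoprotein of lipid-laden macrophages, had 199 against 7.8 CPM. Fn1, which encodes fibronectin, had 453 CPM, above C1q macrophages (91.0 CPM) and below monocytes (1294 CPM). The higher genes also held Cd9, Ctsk, Fabp5 and Il1rn, which are in other lists here as genes of alveolar macrophages, lipid or cytokines. Trem2, Apoe, Timp2 and Mmp12 were lower, and Mmp12, a macrophage elastase, had 11 UMIs against 113. Chil1 had 19 UMIs, too few to compare.

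Clotting genes differed by comparison. Of 8 measured against C1q macrophages, 5 were 2-fold or more higher and 2 lower (18.4% and 7.5% of all genes). Against monocytes 3 of 9 were higher and 3 lower (16.1% and 11.1% of all genes), with a median log2 ratio of -0.53. F13a1, one of the genes that chose the monocytes, is among the lower genes there by choice. Against the cells outside the gate 3 of 12 were higher and 5 lower (10.7% and 27.6% of all genes). F7, clotting factor VII, had 326 CPM against 15.6 CPM, a log2 ratio of 4.38 (95% interval 3.26 to 5.83), and F10, factor X, had 344 against 5 UMIs, a ratio of 3.13. Anxa2, which binds plasminogen, had 1433 against 296 CPM. F10, at 114 CPM, was not above monocytes (131 CPM), whereas F7 was (4.25 CPM). F13a1 and Thbs1 were the lower genes, and tissue factor, F3, had 3 UMIs. Among iron and redox genes, 5 of 21 were higher than in C1q macrophages (Txn1, Prdx1, Slc48a1, Gclm and Srxn1) and 2 lower (Blvrb and Slc11a1), shares near those of all genes (18.4% and 7.5%). The ferritin genes Fth1 and Ftl1 were among the 10 genes with the most UMIs, at 10192 and 6913 CPM, and their log2 ratios over C1q macrophages were 0.33 and 0.34. Slc11a1, a metal transporter of phagosomes, had 5.61 CPM against 125 CPM.

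Against monocytes, the identity genes were again all higher, 29 of 29, where 16.1% of all genes were 2-fold or more higher and 11.1% lower. Their median log2 ratio was 4.97, and that of all genes was 0.20. Atp6v0d2, Plet1, Ear1, Olr1, Cidec, Marco, Fabp1, Mrc1, Wfdc21 and Cpne5 led, the gate genes among them by choice. Wfdc21, a small secreted protein, had 564 CPM against 5.46 CPM, and Cpne5, a copine, had 186 CPM against 0 UMIs. The lowest genes were Ly6c2, Ifitm6, Ms4a4c, F13a1, Apoc2, Plac8, Cd248, Mefv, Gm9733 and Ms4a6b, of which Ly6c2 and F13a1 chose the monocytes. Plac8, a small protein of circulating monocytes, had 37.6 CPM against 2472 CPM. Cd248 is a gene of fibroblasts, and the monocyte set carried 1972 CPM of fibroblast markers.

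Against the 12616 CebpaΔSftpc cells outside the gate, which leaves out the 44 other gated cells, 10.7% of 14805 genes were 2-fold or more higher and 27.6% lower. The 15 highest included the gate genes Ear1, Plet1 and Atp6v0d2, and Siglecf, Olr1, Cidec, Fabp1 and Cpne5 as described above. The others had few UMIs. Spag11b, a defensin-like gene of epididymis, had 107 UMIs in alveolar macrophages and 1.06 CPM elsewhere. Htr2c, a serotonin receptor, had 86.8 CPM against 3.16 CPM, and Ffar2, a receptor for short-chain fatty acids, had 38.6 against 1.49 CPM. Vstm2a, Acaa1b, Wfdc10 and AU022793 completed the 15, at 52.8, 72.0, 50.2 and 34.0 CPM.

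**Figure D4:**
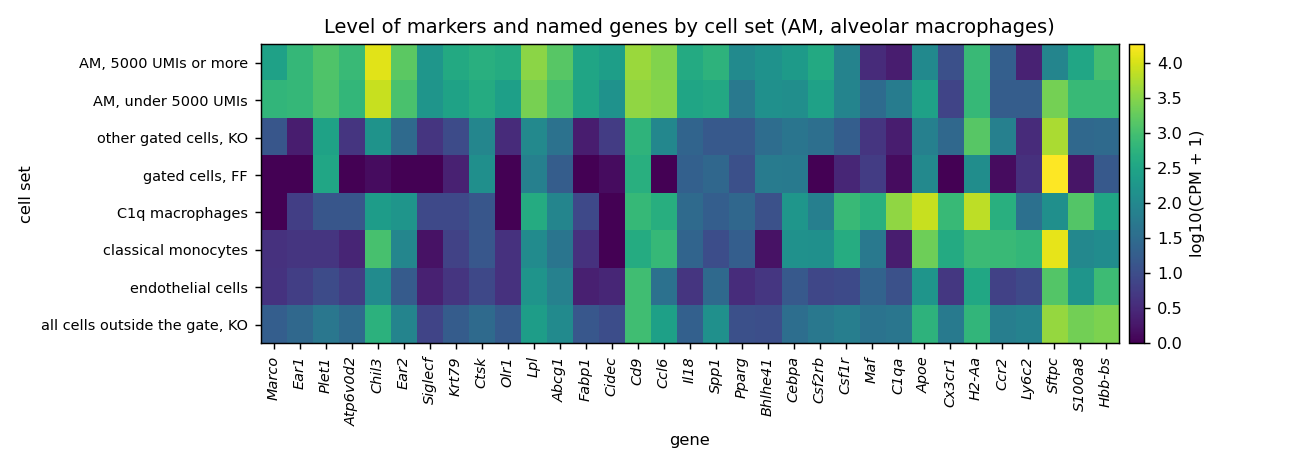
Colour gives log10 of CPM plus 1 for markers and named genes (horizontal) in 8 cell sets (vertical). Deep and shallow alveolar macrophages (AM) share the identity and lipid genes and hold little C1qa and Maf, the gated Cebpa FF cells show Plet1 but not Marco, Ear1, Atp6v0d2 or Chil3, and Sftpc is high in the monocyte set.

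Several genes of the programme had a UMI in nearly every deep cell. Over the 129 cells with at least 5000 UMIs, Chil3 was found in every cell, with a median of 11621 CPM and a range from the 10th to the 90th percentile of 7792 to 16065 CPM. The lowest cell had 240.3 CPM, and had 0 UMIs of Lyz2. Lpl was found in 128 of 129, with a median of 2992 CPM, and Abcg1, Cd9 and Ctsd in all 129. After thinning to 800 UMIs, 94.6% of these deep cells had a Cd9 UMI, 92.2% one of Lpl and 64.3% one of Abcg1. In endothelial cells of the same library the thinned shares were 51.0%, 12.1% and 6.63% (unthinned 87.4%, 35.1% and 25.9%). Marco was patchier and had UMIs in 74 of 129 cells (57.4%), with a median of 81.8 CPM and a 90th percentile of 801 CPM. Fabp4 had UMIs in 67 cells. The class II gene Cd74, found in 124 cells, ranged from 78.9 CPM at the 10th to 5192 CPM at the 90th percentile. Its thinned share was 67.4% in deep cells and 47.8% in endothelial cells.

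A few genes were carried by few cells. Spp1 was found in 112 of 129 deep cells at a median of 218 CPM, but the highest cell reached 14726 CPM and the 5 highest cells held 45.02% of its UMIs. Cxcl2, a neutrophil attractant, was found in 63 cells, and 58.9% of its UMIs lay in 5 of them. For Mt1, a metallothionein, the 5 highest cells held 33.1%. For Chil3 the same share was 8.70%.

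**Figure D5:**
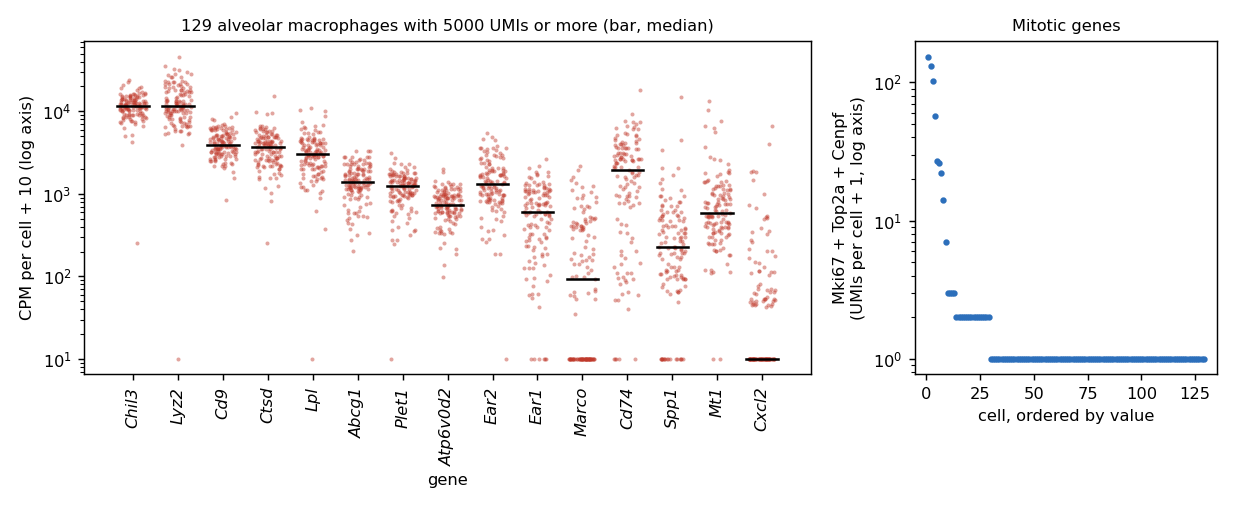
Left, CPM plus 10 (vertical, log axis) of 15 genes in each of 129 deep alveolar macrophages, with bars at the medians. Right, UMIs of Mki67, Top2a and Cenpf plus 1 (vertical, log axis) in the same cells in order of value, of which 8 stand above 10 UMIs and 100 are at 0.

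Genes of mitosis were carried by a few cells set off from the rest. Of 129 deep cells, 8 (6.20%, 95% Clopper-Pearson interval 2.72% to 11.9%) had at least 10 UMIs of Mki67, Top2a and Cenpf, genes of mitosis, with 13 to 153 each. The next cells had 6 and 2 UMIs, 100 had 0, and these 8 held 526 of 556 UMIs. Each had at least 188 Chil3 UMIs and 10 UMIs of Marco, Ear1 and Atp6v0d2, so that both sets of genes stood in the same barcode. Among deep cells of other sets, 0 of 20 C1q macrophages (which allows up to 15%, as 3 counts of the total), 1 of 107 monocytes (0.935%) and 4 of 2486 endothelial cells (0.161%) passed, at depths that differ between the sets. With a wider list of 30 replication and mitosis genes and cells thinned to 800 UMIs, 17 of 364 alveolar macrophages had at least 3 UMIs (4.67%, interval 2.74% to 7.37%, unthinned 41.8%), against 10 of 89 C1q macrophages (11.2%, interval 5.52% to 19.7%, unthinned 34.8%). By this measure the share stood higher in C1q macrophages, and the difference was not tested. The intervals overlapped in part, which does not show that the shares were alike. At the same depth the share was 2.15% in monocytes (interval 0.589% to 5.41%, unthinned 65.1%). In endothelial cells it was 2.37% (interval 1.99% to 2.79%, unthinned 45.8%). Over all 408 gated cells, thinned in a separate draw, it was 3.92%. In summed CPM, 8 of 20 measured genes of this list were 2-fold or more higher than in C1q macrophages and 0 lower (18.4% and 7.5% of all genes), but with all 408 gated cells 4 of 21 were higher and 1 lower (20.2% and 6.99%). Mki67 stood at 90.2 against 28.6 CPM. Over monocytes, 17 of 20 measured genes of the list were 2-fold or more higher and 1 lower (16.1% and 11.1% of all genes). Over the cells outside the gate, 18 of 30 were higher and 0 lower (10.7% and 27.6%).

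Shallow cells carried Chil3 and Lpl, with more RNA of most other cell types. Chil3 stood at 8397 CPM in shallow and 12157 CPM in deep cells, and Lpl at 2531 and 3394. Marco stood higher in shallow cells, 643 against 281 CPM, but a minimum of 3 gate UMIs selects more strongly in cells of few UMIs. The 7 AT2 markers summed to 3404 CPM in shallow and 186 CPM in deep cells, led by Sftpc, of which 749 of 1102 UMIs lay in a single shallow cell and the median cell had 0. The 5 endothelial markers summed to 1688 and 202 CPM, and the 5 fibroblast markers to 708 and 61.5 CPM. The 6 neutrophil markers summed to 1703 and 802 CPM, led by S100a9, and the 5 erythroid markers to 1250.4 and 1806 CPM, led by Hbb-bs. A single deep cell held 4438 of the 4643 erythroid UMIs of the deep cells, and without it they stood at 80.5 CPM, below the shallow cells. The 5 C1q macrophage markers were at 188 and 24.5 CPM, against 10671 CPM in C1q macrophages. Markers of airway secretory cells, mostly Scgb1a1, summed to 590.2 and 291 CPM, AT1 markers to 136 and 41.2 CPM, platelet markers to 146 and 28.0 CPM and monocyte markers to 94.0 and 24.1 CPM. Over all 364 cells, dendritic cell markers summed to 12.5 CPM with Xcr1 at 0, and B cell and T or NK cell markers to 4.95 and 8.26 CPM, with Cd79a, Ms4a1, Cd3d, Cd3e and Cd3g at 0 by the gate. Klf2, a transcription factor abundant in endothelium, moved with these lists, at 385 and 74.3 CPM. The part of such RNA in the genes compared above was not tested. In the deep cells alone 29 of 29 identity genes were 2-fold or more higher than in C1q macrophages, where 19.6% of all genes were. The count was also 29 of 29 over all 364 cells and could not rise.

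The most variable genes among the 364 cells were mostly those of other cell types. After thinning to 800 UMIs, the 10 genes with the highest variance over mean were Sftpc, Hbb-bs, Gm42418, Hba-a1, Malat1, Sftpa1, Hbb-bt, Hba-a2, S100a9 and S100a8. In these, 5 cells held 74.0% of the Sftpc UMIs and 67.1% of those of Hbb-bs. Clusters of the 364 cells were likewise led by such genes, with 95 cells led by hemoglobin genes and Retnlg, 139 by Sftpa1, Sftpc, Col1a1, Mgp and Col3a1, and 130, of which 115 were deep, by Top2a, Cenpf, Cenpe, Gm42047 and Mki67. Chil3 stood at 10180, 6739 and 12317 CPM in them. Among the 129 deep cells alone, 59 were led by hemoglobin genes, whose UMIs in deep cells lay almost wholly in the single cell named above, 30 by Retnlg, S100a9, S100a8, Fbxo32 and Apoc1, and 40 by Cenpf, Top2a, Hist1h2ap, Cenpe and Aspm, and Chil3 lay between 11912 and 12341 CPM. The mitosis genes that led the clusters of 130 and 40 cells likewise came mostly from few cells. In the deep cells, 8 cells held 526 of the 556 UMIs of Mki67, Top2a and Cenpf, and 100 had 0. The clusters were left unnamed, since genes of red cells, neutrophils, epithelium, stroma or division led them.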

How the data were processed

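scRNA-Seq was done on lungs of Cebpa fl/fl and CebpaΔSftpc mice, 1 library each. The authors deposited raw UMI counts per gene and cell barcode for 32285 genes, made with Cell Ranger on mm10. The submitters' notes give version 6.1.1 and the file header 5.0.0. The deposited matrices held 11721 (Cebpa fl/fl) and 13373 (CebpaΔSftpc) barcodes, of which 11487 and 13238 had at least 200 genes and at most 20% mitochondrial UMIs, and 10906 and 13024 also had 800 UMIs. Median depth was 5058 and 2708 UMIs.

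UMIs were summed over the cells of a set and given as CPM. Ratios between sets used genes with at least 50 UMIs over both sets, 3 counts as the floor (where a set had 1 or 2 UMIs, ratios are printed as counted), and 2-fold as the limit for counting a gene as higher or lower. Intervals are 95%. No model or test was fitted, since there were no replicates. Shares of cells with a UMI that are compared between sets were taken after thinning each cell to 800 UMIs. Those at the gate edges and over the deep cells are unthinned unless given as thinned. Scrublet called 0 cells in either library and so did not work, and doublets were kept. Leaving out the 8% of cells with the highest scores (852 and 946 cells, 18 and 4 of them gated) was an alternative. The code was tested on simulated data. Software was Python 3.11.15 with scanpy 1.11.5 for clusters, scipy 1.17.1 for intervals, pandas 2.3.3 and numpy 2.4.6 for sums, and matplotlib 3.10.9 for plots.

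The members and the gene lists were chosen with earlier results of these data known. Of 339 list genes, 337 were in the feature table (not Clec7a and Mx1). The lists share genes: identity genes such as Pparg, Bhlhe41, Il18, Ctsk and F7 count again in other lists. The results of the lists are thus not separate. Genes were named by level within a list (2 to 6 per list) with every member that went against its list, as the 15 highest over other cells, as the 10 highest and 10 lowest over C1q macrophages and monocytes among genes with 100 UMIs, as the 10 most abundant, the 10 most variable, the 5 leading a cluster, and Cebpa. Some list members beyond this rule were named for their known roles after their values were seen. A few list members count in the totals but are not reported here by name. Gene coordinates are from GENCODE on GRCm38, and promoter sequences from RefSeq on GRCm38.p6.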

Additional observations from a re-analysis of the deposited data

Results flagged for a closer look

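Chil3 stood apart between the libraries when gated cells were set against all other cells of their library. In CebpaΔSftpc the log2 ratio was 4.02 (35226 UMIs in gated and 33987 in other cells), whereas the Cebpa fl/fl library had 1 and 180 UMIs, or 0.370 CPM in gated and 2.74 CPM in other cells. As counted, that log2 ratio was -2.89 (95% interval -8.20 to -0.39). Ptprc gave 0.91 in CebpaΔSftpc and -4.51 (interval -7.56 to -2.66) in Cebpa fl/fl, where the gated cells had 2 UMIs. Tyrobp gave 1.13 and -4.18 (interval -6.46 to -2.63), from 3 UMIs. The gated Cebpa fl/fl cells are the Plet1 cells described above, 136 of 149 with at least 3 cilium UMIs, and not macrophages. The ratios thus set different kinds of cells side by side and do not contrast macrophages between the genotypes. With 1 library per genotype the difference between libraries was not tested.

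A further 220 CebpaΔSftpc cells had at least 3 gate UMIs, a UMI of Marco, Ear1 or Atp6v0d2 and fewer than 3 cilium UMIs, but failed the limits on endothelial, B cell or T cell genes. The Cebpa fl/fl library held 1 such cell. In the 220 cells, with a median of 3403 UMIs, Chil3 stood at 10746 CPM, Cd9 at 3809, Ctsd at 3459, Lpl at 2638, Ear2 at 1271 and Abcg1 at 1200.4 CPM. Beside these, Cdh5 stood at 317, C1qa at 57.9, Cd79a at 26.9 and Cd3e at 12.7 CPM, and their part in the values was not tested.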

How the results depend on the processing

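Over all 408 gated cells, 77 values were recomputed under other settings, and 63 of them kept their size within the limits used. The gated share of the CebpaΔSftpc library, 3.13%, became 2.20% with at least 5 gate UMIs and 2.77% without Ear1, and that of the Cebpa fl/fl library, 1.37%, became 0.899% with at least 5. Chosen after seeing the data, the limits on Marco, Ear1, Atp6v0d2 and cilium genes gave 2.79% and 0%, the same with at least 5000 UMIs gave 0.990% and 0%, and no exclusions gave 4.96% and 1.61%. Of 52 counts of genes, 48 stayed within 1.5 times. With at least 200 UMIs over both sets, the genes 2-fold or more higher fell from 1751 to 746 over C1q macrophages and from 1970 to 795 over monocytes, where fewer genes were compared. Without a minimum they numbered 9116 over other cells (2191 with it) and 2969 over monocytes. The share of higher among all genes past 2-fold moved with that minimum, from 39.8% to 73.4% over other cells, from 74.3% to 20.04% over C1q macrophages and from 69.8% to 35.9% over monocytes. Over C1q macrophages the higher genes stayed at 1751 while the lower went from 607 to 6986, and over other cells the lower stayed at 3309. The shares without the minimum do not describe the cells. The floor of 3 counts is a different CPM in sets of different totals, so genes without UMIs can pass 2-fold. With the minimum, the share was 27.2% over other cells and 59.2% over monocytes for the 364 alveolar macrophages, and 28.3% and 58.5% for the deep ones. Other cells are here all those not in the set and so include the gated cells left out. The named genes moved too: with 408 cells, 7 of the 15 highest over other cells were shared with those of the 364. The share with 3 UMIs of replication and mitosis genes, 3.92%, was 1.96% with 5 UMIs. No paired analysis was possible because there was 1 library per genotype. With 89 C1q macrophages and 384598 UMIs, genes at low level could not be compared.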
